A study of Danio rerio with 27 samples.

Results

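PD0325901 inhibits MEK, the kinase that phosphorylates and so activates ERK. Its effect on transcript levels was measured in zebrafish larvae kept at 28 °C, the usual rearing temperature. The comparison consists of 3 libraries of PD0325901-treated larvae (28C_PD) and 3 libraries of vehicle-treated larvae (28C_DMSO), 6 of the 27 libraries in the series, and all 24101 genes of the abundance table were tested. The series was designed to find genes that depend on survival pathways in the cold, and it also holds larvae given SB203580 (50 µM, an inhibitor of p38 kinases) or AS1842856 (0.5 µM, an inhibitor of the transcription factor Foxo1), the same treatments at 10 °C, and a group collected at the start. The 28C_PD larvae were AB strain zebrafish exposed to 5 µM PD0325901 for 12 h from 96 h post fertilization (hpf), and the 28C_DMSO larvae were AB larvae of the same age exposed to 0.1% DMSO, the solvent of the inhibitor stocks, for 12 h. The 10C_PD and 10C_DMSO larvae differed from these in temperature, the 28C_SB and 28C_AS larvae in the compound, and the untreated 96hpf group was collected when exposure began. RNA came from whole bodies, any dead larvae were taken out before collection, and the number of larvae or clutches behind a library is not given in the sources used here. The p-values therefore measure the spread between these samples, which may be technical. In whole-larva RNA, fewer cells of a type and less RNA per cell cannot be told apart.

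Growth factors such as FGFs and EGFs bind receptor tyrosine kinases (RTKs), which switch on Ras, and Ras activates the kinases Raf, MEK and ERK in turn. Active ERK phosphorylates ETS and AP-1 transcription factors, and these induce feedback inhibitors of the same pathway, such as the Dusp phosphatases and the Sprouty and Spred proteins, whose transcript levels are widely read as a record of recent ERK activity. In zebrafish the Pea3-group ETS factors etv4, etv5a and etv5b are known as genes switched on by FGF signaling.

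Levels are given as scaled TPM, that is TPM (transcript abundance relative to all transcripts of a library) divided by a size factor for each library, and changes as log2 differences of scaled TPM + 1, which understate the change of genes with low levels. A value alone in parentheses after a gene is its log2 change in 28C_PD against 28C_DMSO unless another comparison is named. A gene was called when limma gave a Benjamini-Hochberg adjusted p of at most 0.05 and the fold was at least 1.5. The gene lists were chosen with earlier results of these data known. Their shares of calls, set beside those of all genes, describe the lists and do not test them. TPM values keep no sequencing depth, so the depth behind each value is unknown. The 27 libraries summed to between 996255 and 997428 TPM in the table. Size factors were 1.09 to 1.1 in 28C_PD libraries and 0.974 to 1.01 in 28C_DMSO libraries. The 28C_DMSO library 1 had a lower share of TPM from mitochondrial transcripts (7.30%) than the other 2 vehicle libraries (9.91% and 9.69%). In 28C_PD libraries the share was 8.76% to 9.20%. The part of 28C_DMSO library 1 in the results was read from the fits that left it out. At 10 °C the 10C_DMSO library 1 was also lower (8.42%) than libraries 2 and 3 of its group (11.2% and 11.4%). Without that library 16 genes were called higher and 51 lower in 10C_PD against 10C_DMSO, instead of 29 and 64. Markers of all 23 tissues examined were detected in both groups, from skeletal muscle (77124 to 82332 summed scaled TPM in 28C_PD libraries and 87168 to 96469 in 28C_DMSO libraries) to the lateral line (153 to 192 and 169 to 179).

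With PD0325901 at 28 °C few genes passed both thresholds of a call, and more of these fell than rose. Of the 24101 genes, 359 (1.49%) were called, 235 (0.975%) lower and 124 (0.515%) higher in 28C_PD. Before adjustment 4628 genes had a limma p under 0.05, so shifts too small to be called are not counted here. Among the called genes the median log2 change was -0.81 for those that fell and 0.73 for those that rose, and 73 that fell and 21 that rose did so by a fold of 2 or more. The 28C_PD and 28C_DMSO libraries did not overlap in 232 of the 235 genes that fell and in 119 of the 124 that rose, against 12.3% of all genes in the lower direction and 11.4% in the higher direction. Many called genes were weakly expressed, with a mean under 5 scaled TPM in both groups for 68 that fell and 41 that rose. The balance between rises and falls depended on the scaling. On TPM as deposited, without size factors, the median change of all genes was 0.12 instead of 0.0023, and 300 genes were called higher and 154 lower (66.1% of calls higher, against 34.5% with size factors and 34.9% after quantile normalization). On TPM as deposited 151 of the 235 genes that fell and all 124 that rose were called in the same direction. Leaving out the size factors moves changes upward and so favors calls of rises. The kept rises therefore say little about their stability. Changes below are relative to the scaled median, and the medians of most lists are about 0.12 higher on TPM as deposited. Highly expressed genes leaned lower, with a median change of -0.21 in the 287 genes at 500 scaled TPM or more and -0.12 in the 667 genes between 100 and 500, against 0.0077 in the 9828 genes under 5. Leaving out each of the 6 libraries in turn gave 95 to 126 genes called higher and 215 to 258 called lower, and 50 genes that rose and 137 that fell were called in every such fit. When the spread was estimated from the 6 libraries of the compared groups alone, 55 genes were called higher and 137 lower, and of the called genes admitted for naming 24 of 50 rises and 58 of 82 falls kept their call.

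**Figure D1:**
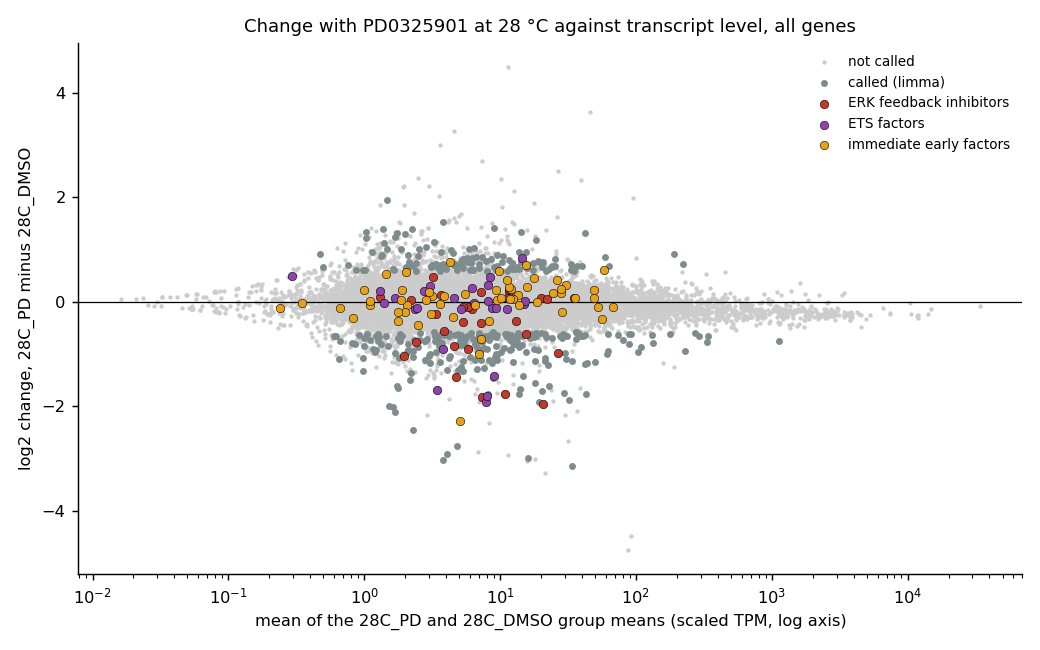
Log2 change of every gene (28C_PD minus 28C_DMSO, vertical axis) against its level (mean of both group means in scaled TPM, log axis), with genes that limma called in dark grey and the members of 3 lists in color. Some of the ERK feedback inhibitors and ETS factors that fell lie among the largest falls, and the points at the right end lie slightly below 0.

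The ERK feedback inhibitors fell. Of the 28 gene identifiers measured for this list, 10 (35.7%) were called lower and 0 higher, against 0.975% and 0.515% of all genes, and the list had a median log2 change of -0.30 (-0.18 on TPM as deposited). The phosphatase gene dusp6, whose product removes the activating phosphates from ERK, had 7.65, 7.81 and 8.09 scaled TPM in 28C_PD libraries, against 32.7, 34.7 and 32.4 in 28C_DMSO libraries, a log2 change of -1.95 ± 0.072 (SE, n = 3 each, limma adjusted p = 6.67e-14). All treated libraries lay far below all vehicle libraries. The symbol dusp6 is carried by a second identifier, so reads may have been split between near-identical copies, and that identifier had 3.81, 4.21 and 5.27 scaled TPM in 28C_PD, against 18.9, 17.1 and 16.1 in 28C_DMSO (-1.76). Sprouty genes encode inhibitors that act between the receptors and Raf. Of these, spry4 had 2.55, 2.19 and 3.32 scaled TPM in 28C_PD and 11.1, 12.4 and 12.6 in 28C_DMSO (log2 change -1.83 ± 0.092), with no overlap between the groups. The more abundant spry2 stood at 18, 17.9 and 17.1 in 28C_PD and 34.5, 36.8 and 36 in 28C_DMSO (log2 change -0.98 ± 0.063), and spry1 at 3.79, 3.96 and 3.52 in 28C_PD and 7.89, 7.98 and 7.8 in 28C_DMSO (-0.90 ± 0.089). Of the 3 Sprouty genes, spry4 thus kept the smallest part of its vehicle level.

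Among the Spred genes, whose proteins hold back the activation of Raf, spred3 had 1.82, 2.33 and 2.13 scaled TPM in 28C_PD libraries, against 7.67, 6.9 and 7.72 in 28C_DMSO libraries (log2 change -1.45 ± 0.091, limma adjusted p = 6.49e-10), and the groups stood clearly apart. A smaller fall was found for spred1, at 12.1 ± 0.945 in 28C_PD and 19.1 ± 1.47 in 28C_DMSO (SD, n = 3 each, log2 change -0.61), and its change no longer reached the fold of 1.5 when single libraries were left out (-0.56 without 28C_DMSO replicate 2 and -0.57 without 28C_PD replicate 1). A second identifier named spred1 was not called (0.48). The related spred2b had an adjusted p of 0.00555 in limma but missed the fold (-0.56). The ERK phosphatase gene dusp4 fell at both of its identifiers (-1.05 and -0.77). It was weakly expressed, with means of 0.924 and 1.52 scaled TPM in 28C_PD, against 2.97 and 3.3 in 28C_DMSO, and the call of the second identifier was lost in 4 of the 6 fits that left out a library (-0.59 without 28C_DMSO replicate 1, -0.82 without 28C_DMSO replicate 2, -0.78 without 28C_PD replicate 2 and -0.61 without 28C_PD replicate 3). For dusp2, which encodes another nuclear phosphatase of MAP kinases, 3.34, 2.45 and 3.24 scaled TPM were measured in 28C_PD and 6.42, 6.7 and 5.45 in 28C_DMSO (-0.85). Not every gene of the list moved. The 2 dusp5 identifiers had log2 changes of 0.03 and 0.095, dusp1 of 0.065, errfi1a of -0.10, il17rd of -0.14 and flrt3 of 0.046, and none of these passed the test. The dusp5 level, given below, was low in both groups, where a fall could hardly show. The genes of phosphatases that act mainly on the p38 and JNK kinases, dusp8a (0.08) and dusp16 (0.25, limma adjusted p = 0.0455, below the fold), were not called. The list held 8 to 10 falls in the fits that left out a library and 8 on TPM as deposited, where spred1 and the second dusp4 identifier lost their call. That dusp4 identifier was also lost with the compared groups alone.

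**Figure D2:**
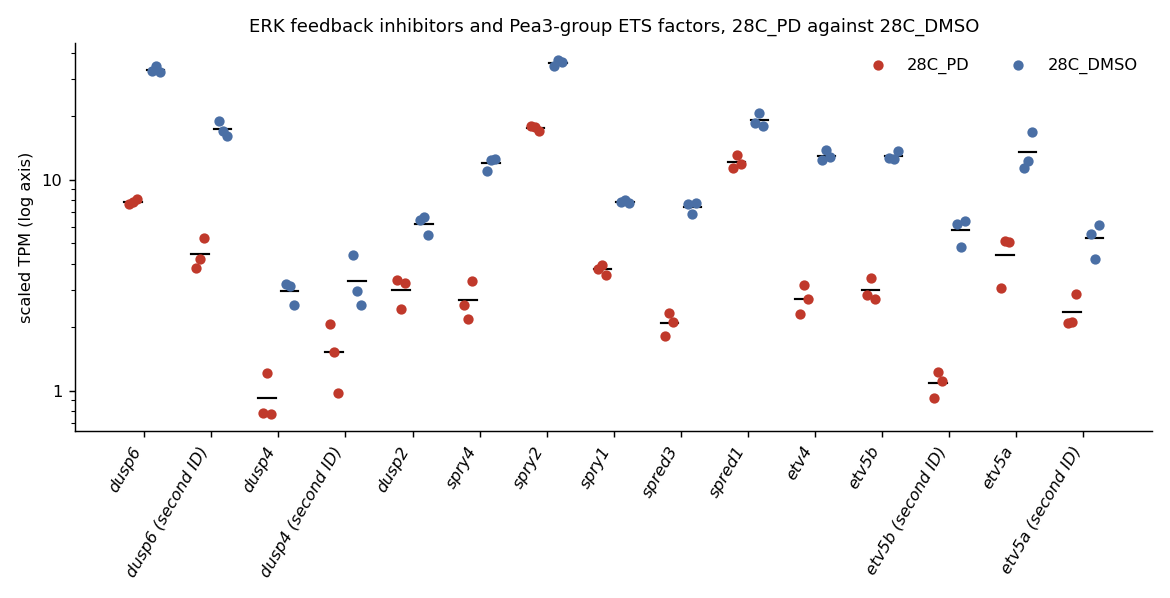
Scaled TPM (log axis) of the called ERK feedback inhibitors and Pea3-group ETS factors in each library, with 28C_PD in red to the left of 28C_DMSO in blue and a bar at each group mean (n = 3 libraries). The 28C_PD libraries lie below the 28C_DMSO libraries for every gene shown, widest apart for dusp6, spry4, etv4 and etv5b.

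The Pea3-group ETS factors fell to a similar degree, and no other member of the ETS list was called lower. Of 27 identifiers, 5 (18.5%) were called lower, all of them named etv4, etv5a or etv5b, and 1 (3.7%) higher (median -0.025). Over all genes these shares were 0.975% and 0.515%. The etv4 transcript stood at 2.31, 3.19 and 2.71 scaled TPM in 28C_PD libraries, against 12.4, 13.8 and 12.8 in 28C_DMSO libraries, a log2 change of -1.91 ± 0.087 (limma adjusted p = 2.87e-12). Its paralog etv5b had 2.85, 3.41 and 2.72 in 28C_PD and 12.7, 12.5 and 13.8 in 28C_DMSO (-1.81 ± 0.084), with a second identifier of the same name at -1.70. For etv5a, also listed under 2 identifiers, the log2 changes were -1.43 and -0.90. None of these groups overlapped between treated and vehicle larvae. The smaller etv5a fall was not called with the compared groups alone. The related Pea3-group gene etv1 was at 4.72 ± 0.502 scaled TPM in 28C_PD and 4.41 ± 0.557 in 28C_DMSO (SD, n = 3 each) and was not called (0.081). The epithelial ETS gene elf3 rose instead, to 19.3, 16.5 and 21.1 in 28C_PD, against 9.26, 11.7 and 9.56 in 28C_DMSO (0.84 ± 0.11, limma adjusted p = 5.94e-05), again without overlap. Of the remaining ETS genes, ets1 had an adjusted p of 0.0173 in limma with a change of 0.48, below the fold of 1.5, and the genes elk1 (-0.025) and elk4 (-0.028), whose factors bind serum response elements, were not called.

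Upstream of MEK few transcripts were called. Over all genes 0.975% were called lower and 0.515% higher, and 1 call in a direction does not set lists of these sizes apart. Among 59 identifiers of RTK ligands, 1 was called lower and 1 higher, and among 42 of the receptors 0 were called, although the FGF receptor gene fgfr4 (-0.51) and the endothelial receptor genes tie1 (-0.54) and flt4 (-0.47) had adjusted p-values in limma of 0.000198, 0.000384 and 0.0032 and missed only the fold. The receptor list held 1 fall without 28C_PD replicate 3 and without 28C_DMSO replicate 2. The ligand gene fgf3 stood at 4.24, 4.33 and 3.84 scaled TPM in 28C_PD, against 1.71, 2.97 and 1.94 in 28C_DMSO (0.70, but 0.58 without 28C_DMSO replicate 1, the edge of the fold threshold, and not called with the compared groups alone). The Ras-ERK cascade itself, from adaptors to ERK and its substrate kinases, held 1 called gene of 52 identifiers. That gene was kras, one of the Ras GTPases, with 40.2, 42 and 38.62 scaled TPM in 28C_PD libraries, against 25, 26.6 and 27.14 in 28C_DMSO libraries (0.60 ± 0.043, limma adjusted p = 6.32e-09). The treated libraries were all higher, but the change lay so close to the fold of 1.5 that the call was lost in 2 fits (0.56 without 28C_DMSO replicate 1 and 0.57 without 28C_PD replicate 2). The genes for the inhibited kinases had log2 changes of -0.11 for map2k1 and 0.042 for map2k2a, and mapk3 of the same cascade had 0.019, none of which passed the test. The small GTPase gene rhoab, chosen after its values were seen, rose to 234, 257 and 255 scaled TPM in 28C_PD, against 132, 128 and 135 in 28C_DMSO (0.91, limma adjusted p = 1.05e-07), the most abundant transcript among the rises named here.

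The immediate early genes, which encode AP-1 and Egr factors and in many cells depend on ERK, did not fall as a group. Of 58 identifiers 4 (6.9%) were called higher and 1 (1.72%) lower, against 0.515% and 0.975% of all genes, with a median of 0.053. All 4 that rose encode AP-1 or related bZIP factors. The level of jun was 72.3, 69.2 and 68.6 scaled TPM in 28C_PD libraries, against 42.4, 49.3 and 45.3 in 28C_DMSO libraries (0.61 ± 0.052, limma adjusted p = 8.23e-08), and that of junbb was 20.4, 18.3 and 19.6 in 28C_PD and 12, 13.3 and 9.44 in 28C_DMSO (0.71). The stress-inducible atf3 had 5.36, 6.24 and 5.34 in 28C_PD and 2.67, 3.64 and 2.46 in 28C_DMSO (0.77, limma adjusted p = 0.000246), and fosl2 had 13.3, 11.4 and 11.6 in 28C_PD and 7.42, 8.74 and 6.92 in 28C_DMSO (0.59). In each of these genes all treated libraries were higher than all vehicle libraries. The calls of jun (0.56 without 28C_DMSO replicate 1), junbb (0.58 without 28C_DMSO replicate 3) and fosl2 (0.57 without 28C_DMSO replicate 1, 0.53 without 28C_DMSO replicate 3 and 0.53 without 28C_PD replicate 1) were lost when those libraries were left out, so that the list held 2 to 5 called rises, the lowest number without 28C_DMSO replicate 3. With the libraries of the compared groups alone, junbb, atf3 and fosl2 lost their call and jun kept it. The gene that fell was ier2a, with 5.75, 4.41 and 5.5 scaled TPM in 28C_PD and 8.5, 11.3 and 7.94 in 28C_DMSO (-0.71, but -0.57 without 28C_DMSO replicate 2, not called, and not called with the compared groups alone). The Egr genes were at low levels in both groups. The 2 egr1 identifiers had means of 7.06 and 3.51 scaled TPM in 28C_PD and 9.39 and 3.75 in 28C_DMSO, with log2 changes of -0.37 and -0.041 that did not pass the test. Of the other genes listed as ERK outputs, 2 of 49 identifiers were called lower, both named phlda2 (-1.07 and -0.62, the second lost on TPM as deposited), and 1 higher, the matricellular protein gene ccn1 (0.72). Neither phlda2 identifier nor ccn1 was called with the compared groups alone. That list held 1 fall without 28C_PD replicate 1 or 28C_DMSO replicate 2, and 3 falls and 2 rises without 28C_DMSO replicate 1. The cell cycle gene ccnd1 had means of 35 in 28C_PD and 40.8 in 28C_DMSO and was not called (-0.21).

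**Figure D3:**
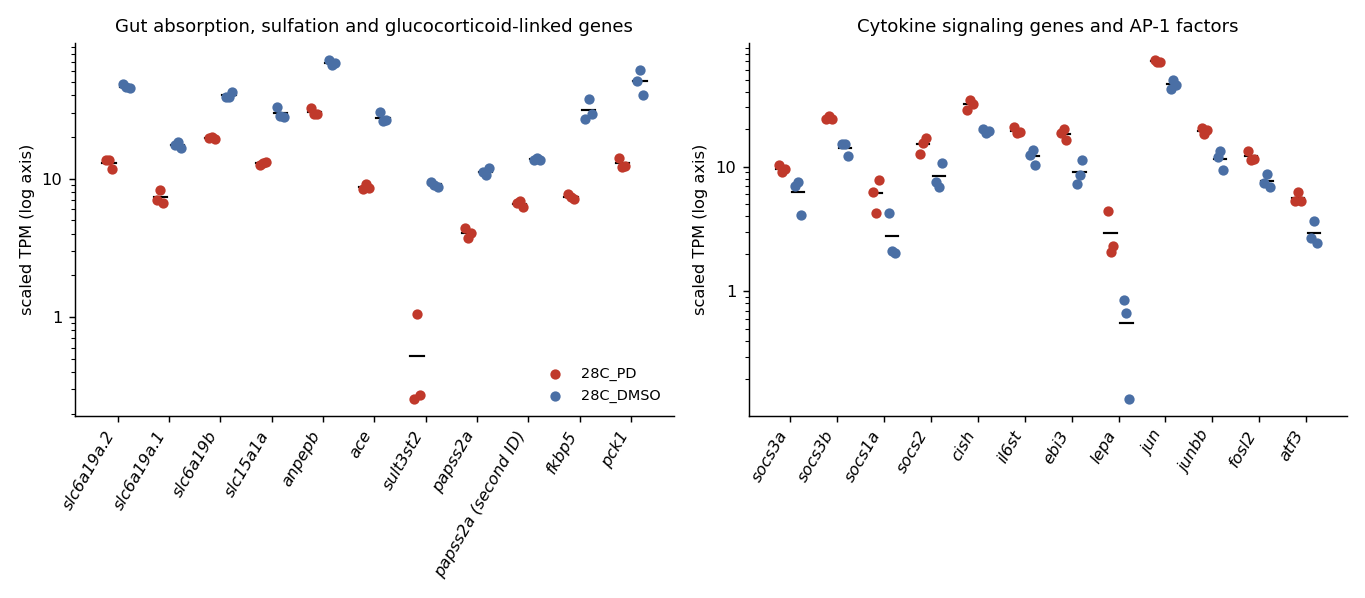
Scaled TPM (log axis) in each library of genes of gut absorption, sulfation and the glucocorticoid list (left panel) and of cytokine signaling genes and AP-1 factors (right panel), with 28C_PD in red to the left of 28C_DMSO in blue and bars at group means (n = 3 libraries). The left panel shows genes that fell and the right panel genes that rose in 28C_PD, with no overlap between the groups.

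The inflammation list did not shift as a whole, with 24 changes above and 24 below 0 (median 0.0024). It held 4 called rises among 48 identifiers (8.33%, against 0.515% of all genes) and 0 falls. All 4 encode inhibitors that cytokine receptors induce through STAT factors: cish, socs3b, socs3a and socs1a. The cish transcript stood at 28.5, 34.1 and 32.1 scaled TPM in 28C_PD libraries, against 19.9, 18.7 and 19.3 in 28C_DMSO libraries (0.68 ± 0.10, limma adjusted p = 9.67e-05). For socs3b the values were 24.2, 25.8 and 24.2 in 28C_PD and 15.2, 15.08 and 12.3 in 28C_DMSO (0.77). Both genes were higher in all treated libraries. The calls of socs3a (0.59) and socs1a (0.93) were less stable and were each lost in 4 of the 6 fits that left out a library, so that 2 of the 48 identifiers rose without 28C_PD replicate 1 or 28C_DMSO replicate 3. Other genes of cytokine signaling were picked because they were called higher, so they do not bear on the list. They were socs2 (12.6, 15.6 and 17 in 28C_PD and 7.55, 6.86 and 10.7 in 28C_DMSO, log2 change 0.79), the shared receptor subunit gene il6st (0.64, but 0.54 without 28C_DMSO replicate 3, below the fold), the cytokine subunit gene ebi3 (0.95) and the leptin gene lepa (4.45, 2.08 and 2.3 in 28C_PD and 0.854, 0.677 and 0.138 in 28C_DMSO, log2 change 1.32). With the libraries of the compared groups alone, socs3a, socs1a, socs2, il6st, ebi3 and lepa all lost their call, and cish and socs3b kept it. Inflammatory cytokines and chemokines of the same list, such as cxcl8a with a mean of 5.24 scaled TPM in 28C_PD and 5.44 in 28C_DMSO (0.015), were not called.

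In the intestine list 5 of 32 identifiers (15.6%, against 0.975% of all genes) were called lower, 0 higher and 27 not called, with a median of -0.28 (-0.13 on TPM as deposited). The list's summed level was 4123 to 4295 scaled TPM in 28C_PD libraries, against 4838 to 5933 in 28C_DMSO libraries, and over all genes these sums were 903740 to 911490 and 982810 to 1023400. The peptide transporter gene slc15a1a had 12.6, 13 and 13.3 scaled TPM in 28C_PD, against 32.9, 28.6 and 28.1 in 28C_DMSO (-1.14 ± 0.089, limma adjusted p = 1.8e-08), and the aminopeptidase gene anpepb had 32.4, 29.6 and 29.4 in 28C_PD and 72.7, 66.2 and 68.2 in 28C_DMSO (-1.15). The neutral amino acid transporter genes slc6a19a.1 (-1.16) and slc6a19b (-0.99) fell alongside. The third gene of that family, slc6a19a.2, is in no list and was picked after its values were seen. It fell furthest, to 13.8, 13.6 and 11.7 in 28C_PD, against 48.1, 45.9 and 45.1 in 28C_DMSO (-1.76 ± 0.062, limma adjusted p = 6.08e-14). No treated library reached the level of a vehicle library in any of these transporter genes. The fifth called gene of the list was the apolipoprotein gene apoa4a (-0.87, but -0.63 without 28C_DMSO replicate 1 and -0.69 without 28C_PD replicate 3, not called, and not called with the compared groups alone). The list held 4 to 8 called falls in the fits that left out a library, 8 without 28C_DMSO replicate 2. The angiotensin-converting enzyme gene ace, a brush-border peptidase in the mammalian gut, was also picked afterwards and had 8.47, 9.1 and 8.54 in 28C_PD, against 30.3, 26 and 26.8 in 28C_DMSO (-1.56). Further transport genes picked because they were called fell by less, among them slc13a2 (-0.69, dicarboxylates), slc26a6 (-0.67, anions), slc28a1 (-0.88, nucleosides) and the aquaporin gene aqp8a.2 (-0.66), and of these slc13a2, slc26a6 and aqp8a.2 lost their call on TPM as deposited. The symbols slc26a6, slc28a1 and aqp8a.2 each have a second identifier that was not called (-0.14, -0.32 and -0.29).

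Some genes of sulfation were picked because they were called lower, and they are described here without a count of the unchanged genes of that process. The sulfotransferase gene sult3st2 had 0.257, 1.05 and 0.275 scaled TPM in 28C_PD libraries, against 9.55, 9.02 and 8.71 in 28C_DMSO libraries (-2.76 ± 0.21, limma adjusted p = 1.39e-08). The symbol is shared by a second identifier that moved the other way, with 2.09, 3.15 and 2.67 in 28C_PD and listed at 0 in all vehicle libraries (limma adjusted p = 0.148), so reads may have been assigned to different copies and the fall is uncertain. The relatives sult3st3 (3.28, 4.28 and 3.14 in 28C_PD and 8.5, 7.23 and 9.71 in 28C_DMSO, log2 change -1.05) and sult3st5, which was listed at 0 in 2 treated libraries and at 0.393 in the third, against 1.58, 2.2 and 1.66 in 28C_DMSO, fell too. Both identifiers of papss2a, which makes the sulfate donor that sulfotransferases use, were called lower, one with 4.39, 3.72 and 4.04 in 28C_PD and 11.1, 10.6 and 12 in 28C_DMSO (-1.28) and the other at -0.96.

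The liver list held 2 to 6 falls when a library was left out, and 6 without 28C_DMSO replicate 3. With all libraries 3 of its 36 identifiers fell (8.33%, against 0.975% of all genes) and 0 rose (median -0.25, -0.11 on TPM as deposited). They were the secreted protein genes serpina1l (151, 150.1 and 168 scaled TPM in 28C_PD and 322, 298 and 285 in 28C_DMSO, log2 change -0.94), ahsg2 (-0.91) and hpxb (-0.65, but -0.56 without 28C_DMSO replicate 1 and -0.57 without 28C_DMSO replicate 2, below the fold, and not called with the compared groups alone). Treated and vehicle libraries did not overlap for serpina1l. In the glucocorticoid list 3 of 21 identifiers (14.3%, against 0.975% of all genes) were called lower and 0 higher (median -0.024). The co-chaperone gene fkbp5, a standard target of the glucocorticoid receptor, had 7.76, 7.39 and 7.12 scaled TPM in 28C_PD, against 27, 37.4 and 29.1 in 28C_DMSO (-1.92 ± 0.27, limma adjusted p = 7.53e-05). The gluconeogenesis gene pck1 had 14.1, 12.2 and 12.4 in 28C_PD, against 51.2, 61.4 and 40.2 in 28C_DMSO (-1.88 ± 0.20, limma adjusted p = 1.64e-06). Both had started higher, at 83.8 ± 10.51 and 147 ± 15.8 scaled TPM in the 96hpf group (SD, n = 3 each). The third, hsd20b2, whose product clears cortisol in zebrafish, was listed at 0 in all treated libraries and at 2.57, 3.32 and 3.2 in 28C_DMSO. The other identifier with that symbol had 5.7, 4.77 and 5.29 in 28C_PD and 6.97, 8.15 and 8.36 in 28C_DMSO and missed the fold (-0.50). The called hsd20b2 identifier also had a mean of 0 in 28C_AS and in 10C_DMSO, groups without PD0325901. Reads may have been assigned to different copies, so its fall is uncertain. A second gene of glucose release, g6pca.1, fell as well (5.18, 4.07 and 4.28 in 28C_PD and 8.86, 8.07 and 9.09 in 28C_DMSO, log2 change -0.82). With pck1 it made up the falls of the FoxO list. In that list 2 of 34 identifiers fell and 2 rose (5.88% each, against 0.975% and 0.515% of all genes). The 2 rises share 1 symbol, trim63a, which encodes a ubiquitin ligase of muscle atrophy. Its first identifier had 41.8, 54.2 and 53 scaled TPM in 28C_PD and 28.6, 30.9 and 31.5 in 28C_DMSO. The log2 changes were 0.68 and 0.68. The second was 0.55 without 28C_DMSO replicate 1 and was not called with the compared groups alone. The glycolysis regulator pfkfb4b was the only call among 27 identifiers of the hypoxia list (-0.69, but -0.56 without 28C_DMSO replicate 2 and -0.58 without 28C_PD replicate 1, not called, nor with the compared groups alone), which held 2 falls without 28C_DMSO replicate 3.

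In the epidermis list 4 of 60 identifiers (6.67%) were called lower and 1 (1.67%) higher, against 0.975% and 0.515% of all genes (median -0.24, -0.12 on TPM as deposited). All 5 are keratin genes, which encode the intermediate filaments of epithelia. The most abundant, krt91, had 774, 889 and 839 scaled TPM in 28C_PD libraries, against 1469, 1461 and 1301 in 28C_DMSO libraries (-0.76 ± 0.063, limma adjusted p = 5.45e-08). The falls of krt1-19d (-0.62), krt15 (-0.62 at 1 of 2 identifiers) and krt17 (-0.60) lay at the fold threshold, and the list held 1 fall without 28C_PD replicate 1, 2 without 28C_DMSO replicate 1 and 1 on TPM as deposited, and krt17 was not called with the compared groups alone. After quantile normalization all 4 falls, that of krt91 included, lost their call. The weakly expressed krt96 rose, to 5.77, 6.09 and 6.44 in 28C_PD, against 2.98, 3.7 and 3.16 in 28C_DMSO (0.73). Integrin genes picked after their values were seen also fell. The pair that anchors epidermal cells to the basement membrane in hemidesmosomes was represented by itga6b, with 16.8, 19.9 and 20.3 scaled TPM in 28C_PD and 47.5, 38.5 and 39.4 in 28C_DMSO (-1.10, limma adjusted p = 5.19e-06), and by itgb4, with 7.69, 7.13 and 6.62 in 28C_PD and 12.5, 10.19 and 12.4 in 28C_DMSO (-0.64, not called on TPM as deposited).

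The skeletal muscle list held 1 fall and 1 rise among 54 identifiers (1.85% each, against 0.975% and 0.515% of all genes), and 2 falls without 28C_PD replicate 1 or 28C_DMSO replicate 3. The fall was that of myf5, a determination factor of muscle precursors (1.27, 2.24 and 1.66 scaled TPM in 28C_PD and 4.31, 4.71 and 4.2 in 28C_DMSO, log2 change -1 ± 0.15), and the rise that of mymk, which is needed for the fusion of myoblasts (6.7, 7.03 and 6.93 in 28C_PD and 2.79, 4.39 and 3.83 in 28C_DMSO, log2 change 0.77 ± 0.12). In both genes the groups did not overlap. With the libraries of the compared groups alone, myf5 kept its call, and mymk and the genes meox1, tcf15 and chrng named next lost theirs. The somite factor genes meox1 (-1.05 at 1 of its 2 identifiers and -0.35, not called, at the other) and tcf15 (-0.65, but -0.53 without 28C_DMSO replicate 2, not called) were picked afterwards and fell. The acetylcholine receptor subunit gene chrng, likewise picked, rose (0.59, but 0.54 without 28C_DMSO replicate 1 and 0.52 without 28C_PD replicate 3, below the fold).

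Several genes of phosphate and vitamin D handling were picked because they were called, apart from fgf23, the ligand called lower in the RTK list, and the unchanged genes of that process were not counted. The hormone gene fgf23 was low throughout, at 0.387, 0.494 and 0.611 scaled TPM in 28C_PD, against 1.85, 2.2 and 1.43 in 28C_DMSO (-0.91), and its call was lost in 5 of the 6 fits that left out a library (-0.90 without 28C_DMSO replicate 1, -0.82 without 28C_DMSO replicate 2, -0.86 without 28C_PD replicate 1, -0.91 without 28C_PD replicate 2 and -0.97 without 28C_PD replicate 3). The phosphate transporter gene slc34a2b rose to 32.7, 30.5 and 35 in 28C_PD, against 17.4, 19.1 and 18.1 in 28C_DMSO (0.81 ± 0.079, limma adjusted p = 5.69e-07), and slc34a1a to 6.32, 7.62 and 6.39 in 28C_PD, against 3.98, 3.39 and 3.23 in 28C_DMSO (0.78). The groups stood apart in both. The parathyroid-hormone-like gene pthlha (0.70) and cyp27b1, which activates vitamin D (0.62, but 0.56 without 28C_DMSO replicate 2 and 0.53 without 28C_PD replicate 1, below the fold, and not called with the compared groups alone), were higher too.

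Lists of lipid metabolism and stress showed a few calls each, against 0.975% of all genes called lower and 0.515% higher. A single call in a list of this size does not set the list apart from all genes. Cholesterol synthesis held 2 rises among 34 identifiers and 0 falls, with 27 positive changes and a median of 0.17 (0.31 on TPM as deposited). The rises were hmgcra, the rate-limiting enzyme (16.6, 15.2 and 15.8 scaled TPM in 28C_PD and 12.1, 8.12 and 9.79 in 28C_DMSO, log2 change 0.63, with a second identifier at 0.57, not called), and 1 of 2 identifiers of pmvk (1.3). The hmgcra call was lost in 1 fit (0.50 without 28C_DMSO replicate 2), that of pmvk in 2 (0.92 without 28C_DMSO replicate 3 and 1.26 without 28C_PD replicate 2), and both with the compared groups alone. The count ran from 1 without 28C_PD replicate 2 or 28C_DMSO replicate 3 to 5 without 28C_DMSO replicate 1 and to 7 on TPM as deposited. Fatty acid and lipid handling had 1 rise, the desaturase gene fads2 (0.67), and 2 falls, apoa4a and apoea (-0.66, but -0.57 without 28C_PD replicate 1, below the fold), among 53 identifiers, with 4 falls without 28C_PD replicate 2, 3 without 28C_DMSO replicate 2 or 3, and 1 without 28C_PD replicate 1 or 3. The xenobiotic list had 2 rises, cyp2k18 (0.89) and gstp2 (0.61, but 0.42 without 28C_DMSO replicate 2 and 0.56 without 28C_PD replicate 1, not called), and 3 falls, cyp2aa8 (-0.73), cyp2aa4 (-0.71, but -0.58 without 28C_PD replicate 1, just below the fold) and cyp2p8 (-0.65), among 54. In the heat shock list of 30 identifiers hsp90aa1.1, a cytosolic chaperone of muscle, rose (23.8, 26 and 25.3 scaled TPM in 28C_PD and 15.9, 14.8 and 15.9 in 28C_DMSO, log2 change 0.66), and hspb11 (-0.81), hsp70.1, hsp70l and hsp70.2 fell. The last 3 were weakly expressed, and without 28C_DMSO replicate 2 their changes were -0.53, -0.49 and -0.50. The list held 1 fall without that library or any 1 of the 28C_PD libraries and 2 without 28C_DMSO replicate 1. With the libraries of the compared groups alone, cyp2k18, gstp2, cyp2aa4, hspb11 and the 3 hsp70 genes lost their call. The unfolded protein list had 1 fall of 55 identifiers (dnajc3a, -0.74), the p53 list 2 rises of 49 (gadd45ba, 0.71, and gadd45ab, 0.67 at 1 of 2 identifiers and 0.52 without 28C_DMSO replicate 1), the pro-apoptotic list 1 fall of 32 (bokb, -0.66), the autophagy list 1 rise of 51 (calcoco1b, 0.59) and the list of Wnt, Notch, Bmp and retinoid targets 1 rise of 69 (the Wnt inhibitor gene wif1, with 26.3, 26.9 and 25.4 in 28C_PD and 13.9, 15.2 and 15.9 in 28C_DMSO, log2 change 0.77). The call of dnajc3a was lost without any library but 28C_DMSO replicate 1, that of bokb in 3 fits (-0.57 without 28C_DMSO replicate 1, -0.54 without 28C_PD replicate 1 and -0.67 without 28C_PD replicate 3) and that of calcoco1b in 4 (0.57 without 28C_DMSO replicate 1, 0.57 without 28C_DMSO replicate 2, 0.57 without 28C_PD replicate 2 and 0.51 without 28C_PD replicate 3). The calls of bokb, calcoco1b and gadd45ab were also lost with the compared groups alone.

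**Figure D4:**
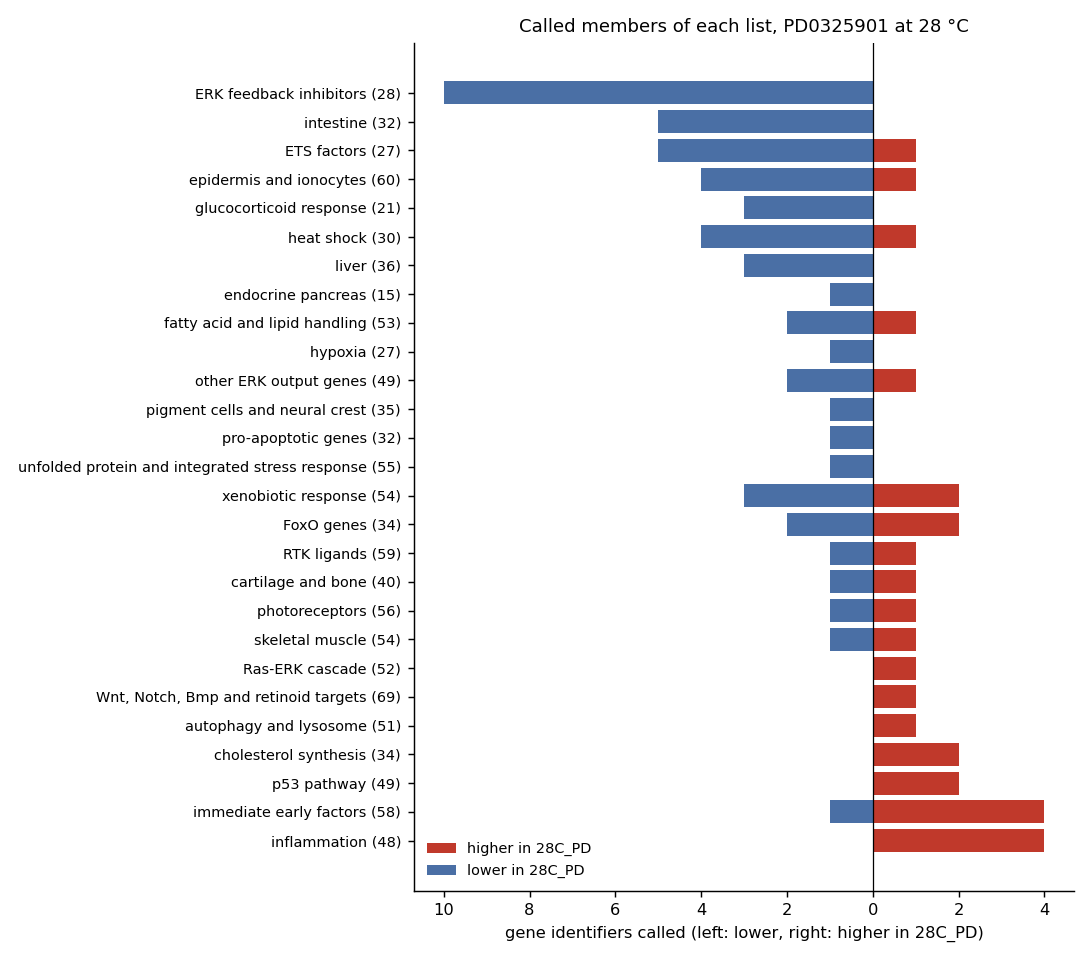
Number of gene identifiers called by limma in each gene list that held a call, with falls in 28C_PD to the left of 0 and rises to the right, and the number of identifiers measured in brackets. The ERK feedback inhibitors have the longest bar, with 10 falls of 28, and the inflammation list has 4 rises and 0 falls.

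No gene was called in the lists of anti-apoptotic genes (26 identifiers), cyclins and DNA replication (63, median 0.092), mitosis (44, median -0.084), ribosome biogenesis (78, median 0.10), bile acid and oxysterol genes (25), oxidative stress (32), the circadian clock (48) and mRNAs of the mitochondrial genome (9). Leaving out 28C_DMSO replicate 1 gave 2 falls among the bile acid genes, and leaving out 28C_DMSO replicate 3 gave 2 falls in oxidative stress and 2 in leukocytes. In 2 lists of abundant transcripts nearly all members shifted a little without a call. Ribosomal proteins had 88 of 91 changes below 0 (median -0.24, -0.093 on TPM as deposited and -0.026 after quantile normalization) and oxidative phosphorylation 64 of 65 (-0.20, -0.057 and -0.072 in the same order). The median of all genes was -0.21 from 500 scaled TPM upward and -0.12 between 100 and 500. Members of both lists are among the genes behind these medians, which are therefore not independent of them.

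Among tissue markers, small shifts without calls were found in erythroid cells, whose 20 identifiers had a median of -0.31 (-0.19 on TPM as deposited and -0.24 after quantile normalization) and a summed level of 5352 to 5455 scaled TPM in 28C_PD libraries, against 7073 to 7764 in 28C_DMSO libraries. Among its genes was the embryonic globin gene hbbe1.3 (1289 ± 82 scaled TPM in 28C_PD and 1782 ± 39.2 in 28C_DMSO, SD, n = 3 each, log2 change -0.47). Other lists with 0 calls had medians below 0 whose size depended on the scaling. The median was -0.28 for 32 leukocyte identifiers (-0.16 on TPM as deposited and -0.27 after quantile normalization), -0.26 for 32 of the exocrine pancreas (-0.12 and -0.10) and -0.20 for 17 of the pituitary and hypothalamus (-0.10 and -0.19). Single calls stood in endocrine pancreas (sst2, -0.60, of 15 identifiers, with 3 falls without 28C_PD replicate 1 and 0 without 28C_PD replicate 3), pigment cells and neural crest (aox5, -0.97, of 35), cartilage and bone (matn3b up, 0.68 but 0.58 without 28C_DMSO replicate 2 and then not called, and spp1 down, -0.82, of 40) and photoreceptors (of 56), of which sst2 and spp1 were not called with the compared groups alone. Over all genes 0.975% were called lower and 0.515% higher, and 1 call does not set such a list apart. Among the photoreceptor genes the rod subunit gene pde6ga fell (-0.87) while its cone counterpart pde6ha rose to 47.5, 63.3 and 72.4 scaled TPM in 28C_PD, against 25.7, 25.5 and 19.9 in 28C_DMSO (1.32 ± 0.13, limma adjusted p = 6.64e-07). The cone gene had stood at 205 ± 21.1 in the 96hpf group (SD, n = 3). Vehicle larvae themselves differed from that group in 662 genes (2.75%), 271 higher (1.12%) and 391 lower (1.62%) in 28C_DMSO. The remaining lists held 0 calls: retinal pigment epithelium (-0.015, 17 identifiers), lens (-0.065, 36), heart (-0.011, 15), neurons (-0.072, 49), neural progenitors (0.064, 28), glia and myelin (-0.10, 25), connective tissue and fin fold (0.11, 43), endothelium (0.0099, 36), lateral line and hair cells (0.0033, 15), kidney (0.12, 19) and notochord and swim bladder (0.13, 20).

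Several of the largest changes belonged to no list. The deepest fall of a well-expressed gene was that of si:dkey-4p15.5, an unnamed locus picked after its values were seen, with 5.78, 7.2 and 5.37 scaled TPM in 28C_PD libraries, against 66.4, 59.7 and 59.95 in 28C_DMSO libraries (-3.15 ± 0.079, limma adjusted p = 1.1e-16). The 2 groups were several-fold apart. The lens galectin-related gene grifin had 8.57, 8.46 and 9.94 in 28C_PD and 35.7, 29.8 and 29.8 in 28C_DMSO (-1.71), and the amino acid transporter gene slc7a10a, picked afterwards, had 7.22, 7.43 and 8.1 in 28C_PD and 21.7, 22.3 and 21.7 in 28C_DMSO (-1.42). The cerebellin-like genes cbln18 (-1.77) and cbln20 (-1.29), the hypothalamic neuropeptide gene npvf (-1.33), the small heat shock gene hspb6 (-1.3), the transglutaminase gene tgm2a (-1.26) and negaly6 (-1.32, but -1.07 without 28C_PD replicate 2, not called) completed the named falls, with vwde (-1.18) and the uncoupling protein gene ucp1 (-0.77) among those picked later. On the rising side cd22 had 15, 11.7 and 13.8 scaled TPM in 28C_PD, against 4.89, 4.39 and 4.08 in 28C_DMSO (1.41 ± 0.23), and notum2 had 7.36, 8.66 and 8.62 in 28C_PD and 3.42, 3.86 and 3.46 in 28C_DMSO (1.01). Both were higher in every treated library. The adhesion gene ncam3 (0.98), the protease gene HTRA3 (0.95), tfcp2l1 (0.86, not called in 4 fits that left out a library), the adrenomedullin gene admb (0.86) and the elastic-fiber gene efemp2a (0.82) also rose. With the libraries of the compared groups alone, cbln18, negaly6, tfcp2l1 and admb lost their call. The IGF-binding protein gene igfbp5b, picked later, had a tightly replicated rise to 44.7, 46.3 and 45.4 in 28C_PD, against 28.2, 27.4 and 27.7 in 28C_DMSO (0.69 ± 0.051, limma adjusted p = 7.83e-09). A gene of the cytokine receptor family, crfb1, was listed at 0 in all vehicle libraries and at 2.77, 4.07 and 2.01 in 28C_PD, whereas the other identifier with that symbol had 2.72, 3.02 and 3.69 in 28C_PD and 6, 3.92 and 5.43 in 28C_DMSO, so the rise is uncertain.

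Few of the genes called at 28 °C were also called with the same inhibitor at 10 °C. In 10C_PD against 10C_DMSO 93 genes (0.386%) were called, 64 lower (0.266%) and 29 higher (0.12%). Of the 235 genes that fell at 28 °C 8 were called lower at 10 °C, which is also 8 of the 64 that fell in the cold, and of the 124 that rose at 28 °C 0 rose and 3 fell at 10 °C. The median change at 10 °C was -0.018 over the 235 and 0.012 over the 124, with the same sign as at 28 °C in 56.2% and 53.2% of them. The difference of both changes, which share no library, had an adjusted p of at most 0.05 in limma for 1000 genes (4.15%). The change at 10 °C was more positive in 546 of them (2.27% of all genes) and more negative in 454 (1.88%). On TPM as deposited this balance turned round, with 319 positive and 1249 negative. Among the genes called at 28 °C the difference passed in 147 of the 235 and 61 of the 124. Those genes were chosen by their change at 28 °C, which enters the difference. Their shares therefore cannot be set against the 4.15%. Of the 28 feedback inhibitor identifiers 10 were called lower at 28 °C and 8 at 10 °C, and 5 at both temperatures, which were both of dusp6 and those of spry4, spry1 and dusp2. The other 5 that fell at 28 °C were not called at 10 °C (spry2 -0.15, spred1 0.036, spred3 0.0006 and dusp4 -0.41 and -0.73 at 10 °C), and dusp1 (-0.64) and both identifiers of dusp5 were called only at 10 °C. The dusp6 level at 10 °C was 50.8 ± 3 scaled TPM in 10C_PD and 101.2 ± 1.45 in 10C_DMSO (SD, n = 3 each, log2 change -0.98), a smaller fall than the -1.95 at 28 °C (difference 0.97, limma adjusted p = 3.39e-06). At the second dusp6 identifier the log2 change was -1.32 at 10 °C. Its difference from the change at 28 °C was 0.44 and did not pass (limma adjusted p = 0.0714). For etv4 the cold values were 13.5 ± 1.11 in 10C_PD and 15.4 ± 0.702 in 10C_DMSO (-0.18), against a fall of -1.91 at 28 °C (difference 1.73, limma adjusted p = 1.13e-08). The same test found a smaller change at 10 °C for spred3 (difference 1.45), both etv5b identifiers and 1 of the 2 of etv5a, the other having an adjusted p of 0.421 in limma.

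The feedback inhibitors were divided in the test of the difference. The change at 10 °C was more positive in 6 of their 28 identifiers and more negative in 4. The immediate early genes leaned to more negative changes at 10 °C. At 10 °C 13 of the 58 identifiers fell and 0 rose, against 0.266% and 0.12% of all genes. In 22 the change was more negative at 10 °C than at 28 °C by the test of the difference, against 1.88% of all genes. The list was chosen with earlier results of these data known. The paper had already reported egr, fos and jun genes as lowered by PD0325901 in these cold libraries. These shares therefore describe the list and do not test it. The level of junbb was 99.1 ± 4.22 scaled TPM in 10C_PD and 311 ± 5.45 in 10C_DMSO (SD, n = 3 each, log2 change -1.64), whereas the gene rose at 28 °C (0.71, difference -2.35, limma adjusted p = 1.67e-09). For egr1 the means were 31.7 ± 5.64 in 10C_PD and 278 ± 21.1 in 10C_DMSO at the first identifier (-3.10), with -0.37 at 28 °C (difference -2.74, limma adjusted p = 1.81e-09). The vehicle levels at 28 °C were lower, as egr1 stood at 9.39 ± 0.518 scaled TPM in 28C_DMSO larvae and junbb at 11.6 ± 1.97. The phosphatase gene dusp5 likewise fell at 10 °C (21.6 ± 0.742 in 10C_PD and 48.2 ± 5.6 in 10C_DMSO, log2 change -1.12) and stood at 1.38 scaled TPM in 28C_PD and 1.24 in 28C_DMSO (difference -1.21, adjusted p = 0.000103 in limma). Away from the pathway, fkbp5 and pck1 had cold changes of 0.51 and 0.28 that were not called, and differed from their falls at 28 °C by 2.43 and 2.16 (limma adjusted p = 0.000469 and 4.73e-05).

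**Figure D5:**
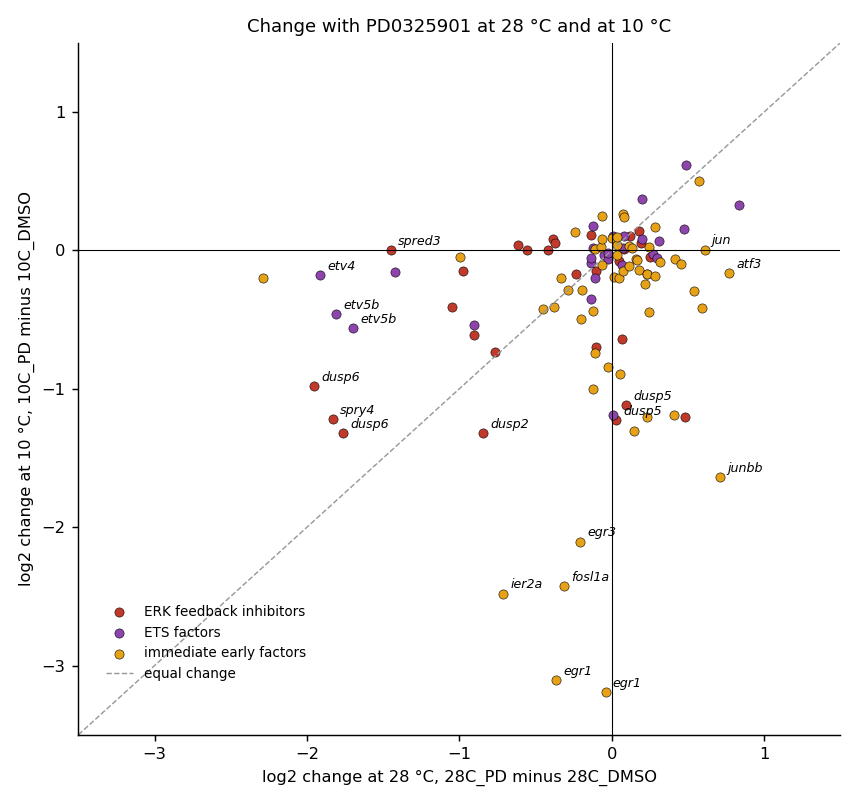
Log2 change with PD0325901 at 10 °C (10C_PD minus 10C_DMSO, vertical axis) against that at 28 °C (28C_PD minus 28C_DMSO, horizontal axis) for the measured members of 3 lists, with a dashed line of equal change. The feedback inhibitors dusp6 and spry4 lie low on both axes. The Pea3-group gene etv4 lies far left and near 0 vertically, and the 2 etv5b points lie lower (-0.46 and -0.56 at 10 °C). The genes egr1, fosl1a and junbb lie far down and near or right of 0 horizontally, and ier2a lies far down and left of 0.

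Set directly against the p38 inhibitor at the same temperature, 28C_PD differed from 28C_SB in 418 genes (1.73%), 198 higher (0.822%) and 220 lower (0.913%) in 28C_PD. On TPM as deposited the balance turned round, with 387 higher and 162 lower. This comparison does not use the vehicle libraries. Feedback inhibitors were lower in 28C_PD in 9 of 28 identifiers and higher in 0, and dusp6 averaged 7.85 ± 0.224 scaled TPM in 28C_PD and 34.5 ± 3.3 in 28C_SB (SD, n = 3 each, log2 difference -2, limma adjusted p = 8.41e-14). For etv4 the means were 2.73 ± 0.442 in 28C_PD and 11.2 ± 0.49 in 28C_SB (-1.71). The intestine list had 7 identifiers lower in 28C_PD and 0 higher. The AP-1 genes that rose against vehicle were also higher than under SB203580, as in junbb (19.4 ± 1.06 in 28C_PD and 9.18 ± 1.5 in 28C_SB, log2 difference 1.01) and atf3 (5.65 ± 0.516 and 1.99 ± 0.348, log2 difference 1.16). Cholesterol synthesis held 9 of 34 identifiers higher in 28C_PD than in 28C_SB and 0 lower. For cyp51, an enzyme of that pathway, the means were 42.9 ± 2.04 scaled TPM in 28C_PD, 17.5 ± 1.85 in 28C_SB and 29.4 ± 4.5 in 28C_DMSO, so that the vehicle lay between the inhibitors. Against vehicle, which both comparisons share, 5 genes (0.0207%) were called with SB203580, 1 higher (0.00415%) and 4 lower (0.0166%), and 359 with PD0325901.

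Against the Foxo1 inhibitor, 28C_PD differed from 28C_AS in 2687 genes (11.1%), 1193 higher (4.95%) and 1494 lower (6.2%), against 2022 higher and 924 lower on TPM as deposited. Here too dusp6 was lower in 28C_PD (7.85 ± 0.224 scaled TPM in 28C_PD and 43.3 ± 4.34 in 28C_AS, SD, n = 3 each, log2 difference -2.32, limma adjusted p = 4.09e-15), as were etv4 (-2.25) and spry4 (-2.44). Some genes that fell with PD0325901 were also low with AS1842856. The slc6a19a.2 change against the shared vehicle was -1.76 with PD0325901 and -1.77 with AS1842856, and that of grifin was -1.71 and -1.53. The cone gene pde6ha differed strongly, at 61.1 ± 12.6 in 28C_PD and 5.09 ± 0.71 in 28C_AS (3.33). With AS1842856 against vehicle 2947 genes (12.2%) were called, 1540 higher (6.39%) and 1407 lower (5.84%).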

How the data were processed

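RNA of whole AB larvae was sequenced in 27 libraries, 3 for each of 9 groups, and 6 of them form the comparison of 28C_PD with 28C_DMSO. The authors deposited TPM values per gene, estimated with Salmon 0.13.1 against Ensembl cDNA with bias corrections and summed to genes with tximport, and kept genes with a TPM of at least 1 in all replicates of a group. Because TPM keep no read counts, no count model could be run and the depth is unknown. No column lacked a sample label, and the table held no comparison columns. Of its identifiers, 20602 matched the gene name table, and 4298 share their symbol with another identifier.

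TPM were divided by median-of-ratios size factors, 1 was added, and log2 values were fitted with limma 3.58.1 in R 4.3.3 (9 group means, 27 libraries, 18 residual degrees of freedom, trended moderation). Genes were called at a Benjamini-Hochberg adjusted p of at most 0.05 and a fold of at least 1.5, and the difference between temperatures at the adjusted p alone. The fit was tested on simulated data with noise drawn independently for each gene and library, so shared batches were not covered. Changes were set well above the fold threshold and not in weakly expressed genes, so the recovery of smaller or weaker ones was not tested. For single values of 3 against 3 libraries the smallest two-sided exact permutation p is 0.1, so no such test was used. Alternatives were TPM as deposited, quantile normalization, other pseudocounts, a stricter filter, the compared groups only, library weights, a replicate block and leaving out each library.

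The 30 process lists and 23 tissue lists and their members were chosen with earlier results of these data known. Named genes are the 15 largest rises and falls that reached a group mean of 5 scaled TPM without overlap and had an unshared, non-clone symbol, up to 6 called members of a list, or its 2 most abundant where none was called, members of the feedback, ETS and immediate early lists, and the 5 largest differences each way between temperatures and inhibitors. Genes described as picked later, hsd20b2, ccn1, tie1, flt4, ccnd1, cxcl8a, map2k1, map2k2a and mapk3 were chosen after their values were seen.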

Additional observations from a re-analysis of the deposited data

Results flagged for a closer look

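The response to PD0325901 differed between the temperatures by limma's test of the change at 10 °C minus the change at 28 °C, with a positive difference in 546 genes and a negative one in 454. Among genes that fell at 28 °C the log2 difference was positive for dusp6 (0.97), spry4 (0.61), spry2 (0.82), spred1 (0.65), spred3 (1.45), etv4 (1.73), etv5a (1.27) and both identifiers of etv5b (1.35 and 1.14), as well as for fkbp5 (2.43), pck1 (2.16), cbln18 (1.88) and grifin (1.76). It was negative for the phosphatase gene dusp2 (-0.48) and the immediate early gene ier2a (-1.77), which also fell at 28 °C. Among genes that rose at 28 °C it was negative for fosl2 (-1.01), jun (-0.60), junbb (-2.35) and atf3 (-0.93). Negative differences were also found for genes not called at 28 °C, among them egr3 (-1.90), fosl1a (-2.12) and ptgs2b (-1.70). The gene ptgs2b encodes an inducible prostaglandin synthase. At the second dusp6 identifier the difference was 0.44 and did not pass (limma adjusted p = 0.0714), nor did that of the other etv5a identifier. The genes named above were picked because they were called at 28 °C or had a large difference. The change at 28 °C enters the difference, so this choice favors differences of the opposite sign. The causes of these temperature differences were not tested.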

How the results depend on the processing

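Against 124 genes called higher and 235 lower in 28C_PD, TPM as deposited gave 300 and 154, the stricter filter 81 higher, the compared groups only 55 and 137, and leaving out a library 95 to 126 and 215 to 258. For the difference between temperatures (546 with a higher change at 10 °C and 454 with a lower one) the counts were 319 and 1249 on TPM as deposited, 213 and 151 with the compared groups only, and 384 to 668 and 308 to 543 without a library. On TPM as deposited 387 genes were higher and 162 lower in 28C_PD than in 28C_SB (198 and 220 with size factors), and 2022 were higher and 924 lower than in 28C_AS (1193 and 1494). At 10 °C, where the alternatives were chosen after seeing the data, the 29 rises became 15 under the stricter filter, 7 with the compared groups only, 18 with library weights and 13 to 42 without a library (13 without 10C_PD replicate 1, 42 without 10C_DMSO replicate 3), and the 64 falls 38 with the compared groups only and 49 to 66 without a library. The cause of these shifts was not tested. Fewer genes were tested under the stricter filter, and fewer samples estimated the spread in the compared groups only. Of the 132 named genes called, 113 kept their call on TPM as deposited, 122 after quantile normalization, 82 with the compared groups only (58 of 82 falls and 24 of 50 rises) and 89 in all 6 fits that left out a library, and 0 reversed. Deviations from the group means in 28C_PD and 28C_DMSO libraries of the same replicate number correlated at -0.108, -0.0221 and -0.0931. The other pairs ran from -0.087 to 0.153. Deviations from a mean of 3 libraries must balance out, so these values cannot decide whether same-numbered libraries shared a batch. With a replicate block 128 genes were called higher and 234 lower, and 129 of the 132 named calls were kept, the others being hsp70.1, hsp70.2 and hsp70l. Calls of weakly expressed genes are limited by the unknown depth.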
